A study of Homo sapiens with 8 samples.

Results

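The 60 genes described here encode proteins of the mitotic spindle, the kinetochore, the spindle assembly checkpoint and cytokinesis. They were listed by name for their part in mitosis, with no threshold on their values but with earlier results of these data known, and every probe that carries one of the names on the array was taken. The names are carried by 84 of 50599 probes, of which 82 were tested, and the 60 genes are part of 14147 genes with a RefSeq mRNA and a tested probe. RNA came from HCT-116, a human colorectal carcinoma line, in 4 groups of 2 arrays. WT was the parental line in exponential growth. WT+NU6102 was the same line after 24 h in 20 µM NU6102, an inhibitor of the cyclin-dependent kinases CDK1 and CDK2. CDK2-/- was a commercial knockout line of the same origin, untreated. R50 was a resistant derivative of WT that was kept in 50 µM NU6102, so its RNA was taken from cells that also had the drug. The 4 groups share the HCT-116 background, and no untreated R50 sample was analysed here. The duplicates are described as biological replicates, and nothing more is said of how the cultures were kept apart, so a p-value here measures the spread between pairs of arrays.

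In mitosis the kinetochore is built on centromeric chromatin, which carries the histone variant CENPA, and its outer part captures spindle microtubules through the NDC80 complex. Kinetochores without attached microtubules feed the spindle assembly checkpoint, which holds back the anaphase-promoting complex or cyclosome (APC/C) until all chromosomes are attached. The chromosomal passenger complex corrects faulty attachments and later, with kinesin motors and their partners, organizes the midzone at which the cell divides. Most of these genes are transcribed periodically and reach their highest RNA level late in the cycle, under the control of the DREAM repressor complex and of the activators MYBL2 and FOXM1. NU6102 inhibits the kinase that drives entry into mitosis, while CDK2 acts mainly earlier in the cycle.

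Levels are given as normalized log2 signal, which is the log2 of the background-subtracted intensity less the 75th percentile of its array. A gene with several tested probes is represented by the brightest. A gene is called higher or lower where limma gave an adjusted p under 0.05 over all 28677 tested probes, with no minimum fold. The 82 tested probes were well above background on all 8 arrays. Duplicates of the members differed by a median of 0.03 to 0.07 log2 units. The CDK2 probe read -0.76 and -0.76 in WT, -0.44 and -0.42 in WT+NU6102, -1.56 and -1.51 in CDK2-/- and -1.10 and -1.09 in R50. The CDK2-/- arrays were the lowest, below WT by a log2 fold change of -0.77 (limma adjusted p = 0.000268). The sources used here do not say which part of the gene was deleted. The epithelial markers EPCAM, CDH1, KRT8, KRT18 and KRT19 passed the scanner's background test on all 8 arrays, and VIL1, another epithelial marker, on 0. Of the markers of other cell types, COL1A2 and PDGFRB were well above background on 0 arrays, DCN and PECAM1 on 1, CD3E on 4, and COL1A1, PTPRC, CD68 and CDH5 on 8. The highest normalized log2 signal among these was -0.51 (CD68), while the epithelial markers other than VIL1 lay between 1.11 and 8.11. Their part in the results was not tested. CDK2-/- and R50 were on slide 1 and WT and WT+NU6102 on slide 2, so the treated and untreated parental cells were compared within a slide, as were both derived lines with each other. In the other comparisons slide and group cannot be told apart.

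Against WT, the mitotic genes as a group were lower in CDK2-/- cells, somewhat lower in R50 cells and split in both directions after NU6102. In CDK2-/- cells 28 of 60 members were lower (46.7%) and 2 were higher, where 17.1% of all genes tested were lower and 20.2% higher. The median log2 fold change of the members was -0.17, beside 0.02 over all genes. In R50 cells 17 of 60 were lower than in WT (28.3%) and 0 were higher, where 16.1% of all genes were lower and 12.6% higher, and the median was -0.15 beside -0.04. The methods' t-test, unadjusted, also put 0 members higher in R50 at p under 0.05. After NU6102, 18 of 60 were higher (30%) and 9 lower (15%), where 30.4% of all genes were higher and 24.3% lower, so that the share of higher members was near that of all genes. The median was 0.02 beside 0.05 over all genes. In bulk RNA, fewer cells in late phases of the cycle and less of these RNAs per cell cannot be told apart.

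R50 against CDK2-/-, within a slide, had 13 members higher (21.7%) and 5 lower (8.33%), where 17.5% of all genes were higher and 25% lower. R50 against WT+NU6102, across slides, had 5 members higher (8.33%) and 31 lower (51.7%), where 26.6% of all genes were higher and 35.4% lower. The order of the groups can also be read from the group means. WT+NU6102 was the highest group for 31 of 60 members and WT for 21, while R50 was the highest for 1, NUF2. CDK2-/- was the lowest group for 27, R50 for 20 and WT+NU6102 for 12, while WT was the lowest for 1, NUSAP1. Over the 14147 genes WT+NU6102 was highest for 39.4%, WT for 13.7% and R50 for 18.9%, beside 51.7%, 35% and 1.67% of the members. CDK2-/- was lowest for 22.6% of all genes, R50 for 31.9%, WT+NU6102 for 31.7% and WT for 13.8%, beside 45%, 33.3%, 20% and 1.67% of the members, so that the share with R50 lowest was near that of all genes. Most changes were small. By the brightest probes, INCENP in R50 against WT+NU6102 was the only member with a called log2 fold change beyond 1. By these probes the range against WT was -0.97 to 0.82 after NU6102, -0.93 to 0.28 in CDK2-/- and -0.50 to 0.14 in R50. A dimmer CENPN probe, for NM_001100624, gave 1.24 after NU6102 and -1.22 in R50 against WT+NU6102, both called.

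**Figure D1:**
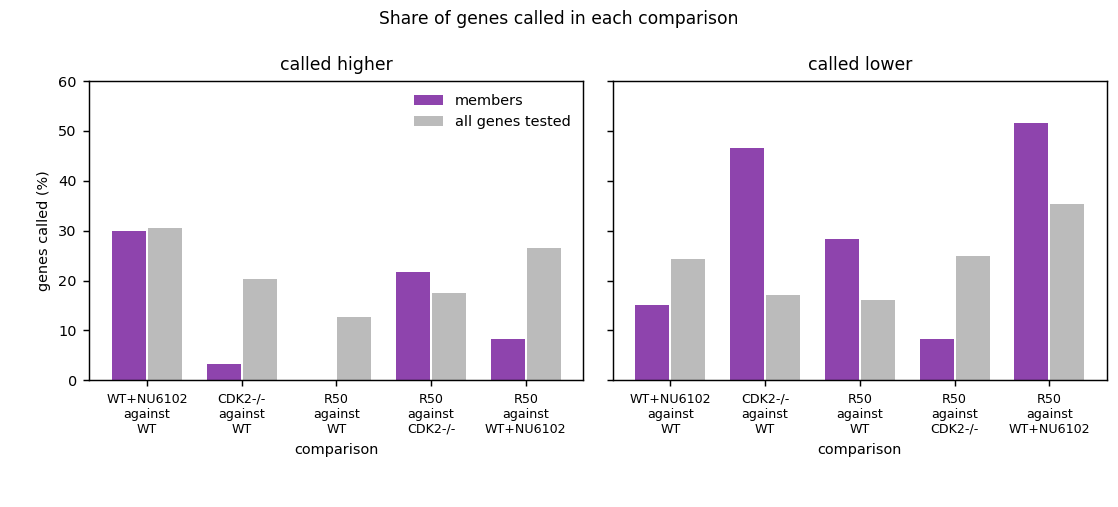
Percent of genes called higher (left) and lower (right) in each of 5 comparisons, for the 60 members (purple) and for the 14147 genes tested (grey), at a limma adjusted p under 0.05. The purple bar for lower genes stands at 46.7% in CDK2-/- against WT beside 17.1% in grey, while after NU6102 the purple and grey bars for higher genes are 30% and 30.4%.

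The number of calls rests on few arrays. Leaving out 1 array of a pair compared left fewer members called. The median log2 fold change of the 60 in CDK2-/- was then -0.18, -0.20, -0.19 and -0.18 (all genes 0.02, 0.03, 0.02 and 0.03). These are without WT replicate 1, WT replicate 2, CDK2-/- replicate 1 and CDK2-/- replicate 2, in that order. In R50 against WT the median was -0.16, -0.15, -0.13 and -0.16, beside -0.04 each time over all genes. Here WT replicate 1, WT replicate 2, R50 replicate 1 and R50 replicate 2 were left out in turn. After NU6102 the median was 0.01 without WT+NU6102 replicate 2, beside 0.04 over all genes. With no filter on dim probes, 12 of 60 were lower in CDK2-/- and 1 of 60 in R50 against WT. The shares over all genes were 9.67% and 4.21%. A fit of the groups compared alone also left 1 of 60 lower in R50 against WT, where 4.52% of all genes were. In both settings the R50 share was below that of all genes. Quantile normalization gave 10 higher and 17 lower after NU6102, where 26.2% of all genes were higher and 26.4% lower. The share of lower members was thus near that of all genes. It gave 17 and 3 for R50 against CDK2-/- (all genes 19.8% and 22%) and 12 and 24 for R50 against WT+NU6102 (29.4% and 31.8%). CDK2-/- against WT had 2 and 30 (all genes 19.4% and 18.7%).

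The promoters of the members hold sequence elements that are known from genes of late cell cycle phases. The cell cycle homology region, TTTGAA, is bound by the DREAM and MuvB complexes, and CCAAT is bound by NF-Y. RefSeq windows on GRCh38.p14, from 250 bases before to 50 bases after a gene's start, were matched for 47 of 60 members, with SGOL1 and SGOL2 found under their present symbols SGO1 and SGO2. BUB3, TTK, KNTC1, UBE2C, BIRC5, CENPH, CENPM, CASC5, RACGAP1, AURKA, TPX2, FOXM1 and PBK had no entry in the table. With both strands searched and the first window listed for each gene, TTTGAA was found in 33 of 47 members (70.2%) and in 15.4% of the windows of 27305 genes. CCAAT was found in 37 of 47 (78.7%) and in 35.7%, and both, which can overlap by 1 base, in 27 of 47 (57.4%) and in 6.08%. The variants TTTAAA and TTCGAA, which cannot overlap TTTGAA, were found in 11 members (23.4%, all genes 12.3%) and in 4 (8.51%, all genes 1.45%). TTTGAA lay between 60 bases before and 50 bases after the start in 28 members and in 5.07% of all genes. The share with the element, given as a description with no test, was similar in members that were called and in those that were not. It was present in 16 of 21 members that were lower in CDK2-/- cells and in 16 of 25 that were not called, and after NU6102 in 9 of 13 higher, 4 of 7 lower and 20 of 27 not called.

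Of these windows, 6 are printed from 120 bases before to 10 bases after the start, in the direction of the gene, with any TTTGAA or TTTAAA and any CCAAT on either strand in capitals. On the other strand TTTGAA reads TTCAAA, and a CCAAT reads ATTGG. ZWINT, SPC25 and KIF18A are the members that were lowest in CDK2-/- against WT, INCENP rose strongly after NU6102, CDC20 is the activator of the APC/C and PTTG1 was lower after NU6102. TTTGAA begins 31 bases before the start in ZWINT (on the other strand), 3 before it in SPC25 and 10 before it in KIF18A and INCENP. CDC20 holds it between CCAAT elements, and PTTG1 holds TTTAAA. They lie at chr10:56361250-56361379 on the minus strand (ZWINT), chr2:168890421-168890550 on the minus strand (SPC25), chr11:28108147-28108276 on the minus strand (KIF18A), chr11:62123891-62124020 on the plus strand (INCENP), chr1:43358861-43358990 on the plus strand (CDC20) and chr5:160421735-160421864 on the plus strand (PTTG1).
ZWINT: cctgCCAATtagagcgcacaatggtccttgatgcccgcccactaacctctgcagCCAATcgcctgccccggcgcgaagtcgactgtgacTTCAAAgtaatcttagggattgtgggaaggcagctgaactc
SPC25: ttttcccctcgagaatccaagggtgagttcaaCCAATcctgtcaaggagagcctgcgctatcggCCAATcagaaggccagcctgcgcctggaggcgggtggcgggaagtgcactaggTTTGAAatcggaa
KIF18A: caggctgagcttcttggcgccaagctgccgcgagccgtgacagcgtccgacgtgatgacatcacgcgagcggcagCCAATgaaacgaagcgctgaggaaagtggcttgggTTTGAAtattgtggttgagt
INCENP: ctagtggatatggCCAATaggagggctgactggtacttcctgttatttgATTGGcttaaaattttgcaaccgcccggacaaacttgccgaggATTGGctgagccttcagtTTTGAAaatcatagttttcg
CDC20: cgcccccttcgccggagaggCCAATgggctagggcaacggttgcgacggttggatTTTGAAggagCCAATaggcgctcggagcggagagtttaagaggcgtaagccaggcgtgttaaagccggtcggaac
PTTG1: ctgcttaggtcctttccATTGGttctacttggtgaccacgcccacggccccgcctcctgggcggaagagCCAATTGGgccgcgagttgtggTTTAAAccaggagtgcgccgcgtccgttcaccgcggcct
A match of letters is a description of these windows, and binding was not measured.

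**Figure D2:**
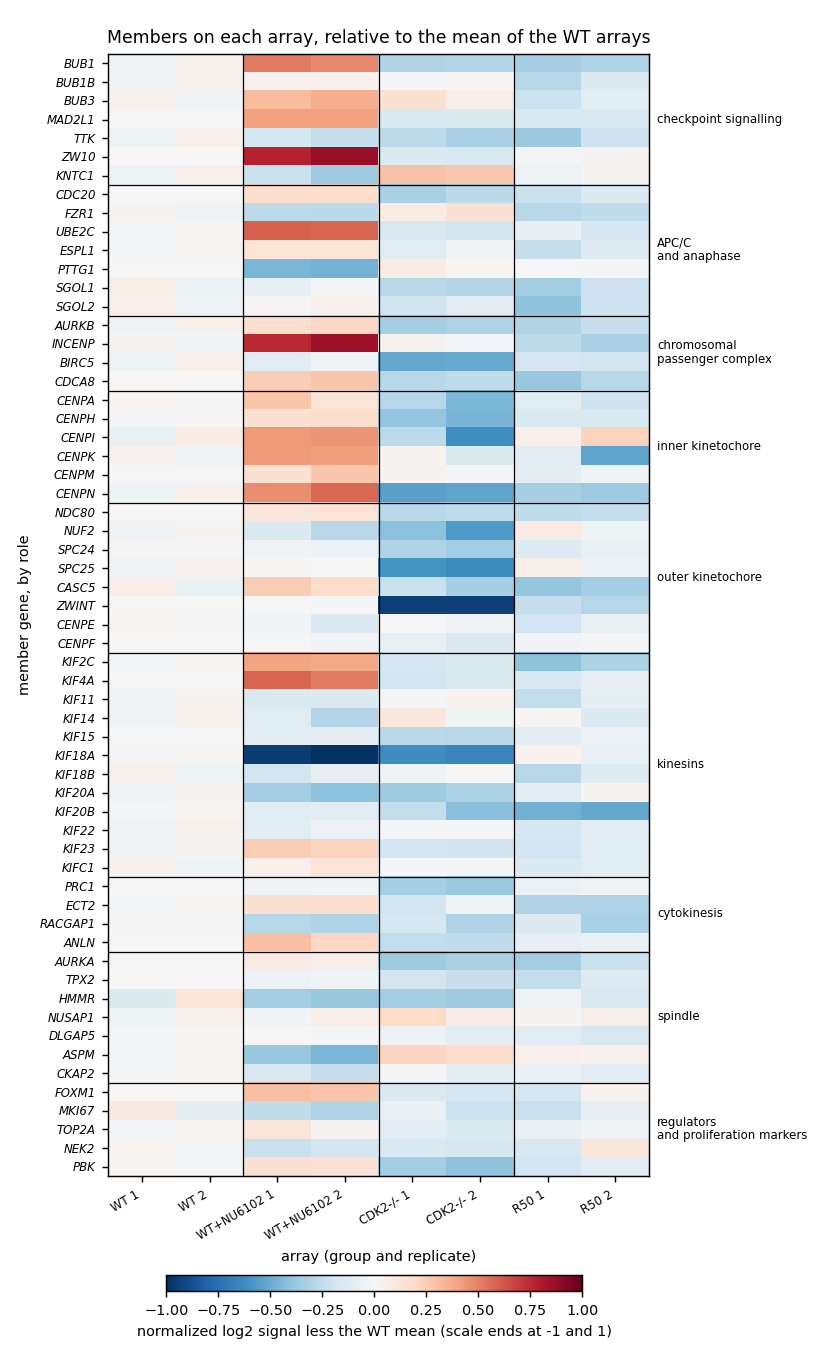
Each row is a member gene, grouped by role, and each column an array. Colour gives the normalized log2 signal less the mean of the WT arrays, blue for lower and red for higher, on a scale that ends at -1 and 1. The CDK2-/- columns are mostly blue, the WT+NU6102 columns hold the darkest red (ZW10, INCENP) and the darkest blue (KIF18A), and the R50 columns are pale blue.

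The counts by role that follow stand beside 30.4% of all genes higher and 24.3% lower after NU6102. Of all genes, 17.1% were lower in CDK2-/- and 16.1% in R50 against WT. Of the 7 checkpoint genes, 4 were higher after NU6102 and 1 was lower, and 3 were lower in CDK2-/- and in R50 cells against WT. The 4 include BUB3, whose second probe was lower after NU6102 (-0.58, limma adjusted p = 0.000824). BUB1, a checkpoint kinase at the kinetochore, gave 2.17 and 2.24 in WT, 2.72 and 2.68 in WT+NU6102, 1.90 and 1.91 in CDK2-/- and 1.87 and 1.90 in R50. Both treated arrays lay above WT and all arrays of CDK2-/- and R50 below it, with R50 just under CDK2-/-. The log2 fold change against WT was 0.50 (SE 0.05, limma adjusted p = 0.000773) after NU6102, -0.30 (adjusted p = 0.00748) in CDK2-/- and -0.32 (adjusted p = 0.00943) in R50. MAD2L1, which with CDC20 forms the inhibitor of the APC/C, was higher by 0.41 after NU6102 and lower by 0.15 in CDK2-/- and by 0.16 in R50 on the log2 scale. ZW10 and KNTC1 belong to one complex, which brings dynein to the kinetochore, and they moved in opposite directions after NU6102. ZW10 gave 0.74 and 0.73 in WT, 1.51 and 1.61 in WT+NU6102, 0.59 and 0.58 in CDK2-/- and 0.72 and 0.77 in R50. Its treated arrays stood far above all others, with a log2 fold change of 0.82 (SE 0.05, adjusted p = 0.000287). KNTC1 gave 0.56 and 0.67 in WT, 0.40 and 0.26 in WT+NU6102, 0.91 and 0.89 in CDK2-/- and 0.57 and 0.64 in R50. It was lowest in both treated arrays and highest in both CDK2-/- arrays, with log2 fold changes of -0.29 (adjusted p = 0.0208) and 0.28 (adjusted p = 0.032), and R50 lay within WT. The CDK2-/- value was no longer called without either WT array or either CDK2-/- array. BUB1B, a component of the same inhibitor as MAD2L1, gave 2.34 and 2.42 in WT, 2.42 and 2.43 in WT+NU6102, 2.36 and 2.39 in CDK2-/- and 2.10 and 2.24 in R50. WT, WT+NU6102 and CDK2-/- overlapped, and the lower R50 arrays did not pass the test against WT (log2 fold change -0.21, adjusted p = 0.0726) but did against WT+NU6102 (-0.25, adjusted p = 0.021). TTK, a kinase at the head of the checkpoint, was lower by 0.29 in both CDK2-/- and R50, with -0.20 after NU6102, which was not called.

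Of the 7 genes of the APC/C and of anaphase, 2 were higher and 2 lower after NU6102 (28.6% each). These shares were near the 30.4% and 24.3% of all genes. The activator CDC20 and the ubiquitin-conjugating enzyme UBE2C were higher, and the second activator FZR1 and the separase inhibitor PTTG1 (securin) were lower. UBE2C gave 5.43 and 5.45 in WT, 6.04 and 6.02 in WT+NU6102, 5.28 and 5.26 in CDK2-/- and 5.36 and 5.27 in R50. The treated arrays were apart from the rest by a log2 fold change of 0.59 against WT (SE 0.05, adjusted p = 0.000557), and CDK2-/- and R50 overlapped and were not called against WT. PTTG1 gave 5.91 and 5.92 in WT, 5.46 and 5.44 in WT+NU6102, 5.99 and 5.93 in CDK2-/- and 5.91 and 5.90 in R50. The treated arrays lay far below the others, which spanned less than the gap, with a log2 fold change of -0.47 (SE 0.04, adjusted p = 0.000802). CDC20 gave 3.11 and 3.12 in WT, 3.29 and 3.29 in WT+NU6102, 2.79 and 2.84 in CDK2-/- and 2.89 and 2.98 in R50. No arrays of different groups overlapped, and the log2 fold changes against WT were 0.17 (adjusted p = 0.042) after NU6102, -0.30 (adjusted p = 0.00995) in CDK2-/- and -0.18 (adjusted p = 0.059, not called) in R50. The rise after NU6102 was small and was lost under quantile normalization (0.03, adjusted p = 0.714). FZR1 gave 1.22 and 1.16 in WT, 0.93 and 0.92 in WT+NU6102, 1.27 and 1.34 in CDK2-/- and 0.92 and 0.94 in R50. The arrays of both groups that had the drug overlapped and lay below the others, at -0.27 (adjusted p = 0.00861) and -0.26 (adjusted p = 0.02) against WT, and R50 was lower than CDK2-/- by 0.38 (adjusted p = 0.00365). The shugoshins SGOL1 and SGOL2, which protect centromeric cohesion, were lower in R50 by 0.28 and 0.31, and SGOL1 also in CDK2-/- by 0.29. ESPL1, the separase, was called in R50 against WT+NU6102 alone (-0.32).

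Of the chromosomal passenger complex, 3 of 4 genes were higher after NU6102, 3 of 4 lower in CDK2-/- and 3 of 4 lower in R50. AURKB and CDCA8 were among them each time, INCENP after NU6102 and in R50, and BIRC5 in CDK2-/-. INCENP, the scaffold of the complex, has its probe in hg19 at chr11:61919742-61919801, base 3252 of its transcript, and gave 1.19 and 1.13 in WT, 1.91 and 2.01 in WT+NU6102, 1.20 and 1.15 in CDK2-/- and 0.90 and 0.83 in R50. The treated arrays were highest and the R50 arrays lowest, and CDK2-/- overlapped WT. The log2 fold change was 0.80 after NU6102 (SE 0.06, adjusted p = 0.000393), -0.29 in R50 against WT (adjusted p = 0.024) and -1.10 in R50 against WT+NU6102 (SE 0.06, adjusted p = 8.71e-05). AURKB, the kinase of the complex, gave 1.11 and 1.21 in WT, 1.33 and 1.37 in WT+NU6102, 0.83 and 0.85 in CDK2-/- and 0.86 and 0.93 in R50. It was above WT in both treated arrays and below it in all CDK2-/- and R50 arrays, with log2 fold changes of 0.19 (adjusted p = 0.0432), -0.32 (adjusted p = 0.0105) and -0.27 (adjusted p = 0.0266). The rise was not called under quantile normalization (0.11, adjusted p = 0.158). CDCA8 (borealin) was likewise higher after NU6102 and lower in both lines, at 0.26, -0.26 and -0.33. BIRC5 (survivin) was lower in CDK2-/- by 0.51 (adjusted p = 0.00203) and not called after NU6102 (-0.07) or in R50 (-0.17), and it was higher in R50 than in CDK2-/- by 0.33 (adjusted p = 0.00718).

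All 6 genes of the inner kinetochore had a positive log2 fold change after NU6102, from 0.16 to 0.52, and 4 were called higher (CENPH, CENPI, CENPM and CENPN). In CDK2-/- cells 3 of 6 were lower, and in R50 against WT 1 (16.7%, near the 16.1% of all genes). Both counts include CENPN, by its brightest probe alone. CENPN, which binds CENPA nucleosomes, gave 4.35 and 4.43 in WT, 4.86 and 4.97 in WT+NU6102, 3.85 and 3.86 in CDK2-/- and 4.06 and 4.03 in R50 with its brightest probe. The 4 groups did not overlap, and the log2 fold changes against WT were 0.52 (SE 0.06, adjusted p = 0.00132), -0.53 (SE 0.06, adjusted p = 0.00219) and -0.35 (SE 0.06, adjusted p = 0.0138). R50 was lower than WT+NU6102 by 0.87 (adjusted p = 0.000153). The CENPN probes for NM_001100625 and NM_001100624 gave 0.32 and 0.03 in R50 against WT, neither called. In CDK2-/- against WT they gave 0.70, called higher, and 0.16, not called. CENPA gave 0.27 and 0.23 in WT, 0.53 and 0.38 in WT+NU6102, -0.03 and -0.20 in CDK2-/- and 0.13 and 0.04 in R50. The groups followed each other without overlap, but the spread in WT+NU6102 and CDK2-/- was wide, and against WT only CDK2-/- was called (-0.37, SE 0.08, adjusted p = 0.0242). CENPH was lower in CDK2-/- by 0.42 (adjusted p = 0.00237) and higher in R50 than in CDK2-/- by 0.27 (adjusted p = 0.00914). CENPI had wide errors (SE 0.13), with 0.43 after NU6102 (adjusted p = 0.0443) and 0.57 in R50 against CDK2-/- (adjusted p = 0.0226). Its other probes gave 0.40 and 0.46 after NU6102, both called, but -0.22 and 0.36 in R50 against CDK2-/-, neither called, and the first of them was lower in R50 against WT (-0.41, adjusted p = 0.0233) where the brightest gave 0.14. CENPK was called in R50 against WT+NU6102 alone (-0.74, SE 0.14, adjusted p = 0.00742), and its R50 arrays read -1.81 and -2.24.

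Of the 8 genes of the outer kinetochore, 6 were lower in CDK2-/- against WT, with ZWINT the largest fall of any member, and these were all 4 subunits of the NDC80 complex (NDC80, NUF2, SPC24 and SPC25), the scaffold CASC5 (KNL1) and its partner ZWINT. After NU6102 0 of 8 were called, with log2 fold changes from -0.21 to 0.22. ZWINT, with a probe in hg19 at chr10:58117345-58117404 near the end of its transcript (base 1645), gave 4.51 and 4.51 in WT, 4.51 and 4.49 in WT+NU6102, 3.58 and 3.57 in CDK2-/- and 4.28 and 4.23 in R50. Treated and untreated WT cells overlapped, CDK2-/- was far below and R50 lay between. The log2 fold change was -0.93 in CDK2-/- (SE 0.04, adjusted p = 0.000159) and -0.26 in R50 (adjusted p = 0.0151), and after NU6102 it was -0.01, with a 95% confidence interval that ran from -0.12 to 0.11. SPC25 gave 3.35 and 3.43 in WT, 3.40 and 3.40 in WT+NU6102, 2.79 and 2.75 in CDK2-/- and 3.45 and 3.33 in R50. Only CDK2-/- stood apart, at -0.62 against WT (SE 0.06, adjusted p = 0.00153), and the other 3 groups overlapped. NUF2 was lower in CDK2-/- by 0.49 (adjusted p = 0.00919), SPC24 by 0.32 (adjusted p = 0.00587) and NDC80 by 0.27 (adjusted p = 0.00753). Within slide 1, R50 was higher than CDK2-/- in ZWINT (0.68, adjusted p = 0.000361), SPC25 (0.62, adjusted p = 0.0013), NUF2 (0.51, adjusted p = 0.00721) and SPC24 (0.22, adjusted p = 0.019), but not in NDC80 (0.02) or CASC5 (-0.08), which were lower than in WT in both lines. CASC5 gave 0.69 and 0.56 in WT, 0.87 and 0.81 in WT+NU6102, 0.40 and 0.29 in CDK2-/- and 0.24 and 0.28 in R50. The arrays of CDK2-/- and R50 were all below WT, at -0.28 (adjusted p = 0.0324) and -0.36 (adjusted p = 0.0205), and the treated arrays were above WT without a call (0.22). CENPE, a kinesin of the kinetochore, gave 0.62 and 0.58 in WT, 0.57 and 0.46 in WT+NU6102, 0.60 and 0.57 in CDK2-/- and 0.40 and 0.52 in R50. WT overlapped CDK2-/- and WT+NU6102 overlapped R50, and no comparison was called, and CENPF was likewise not called in any, with values from -0.11 to 0.09.

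**Figure D3:**
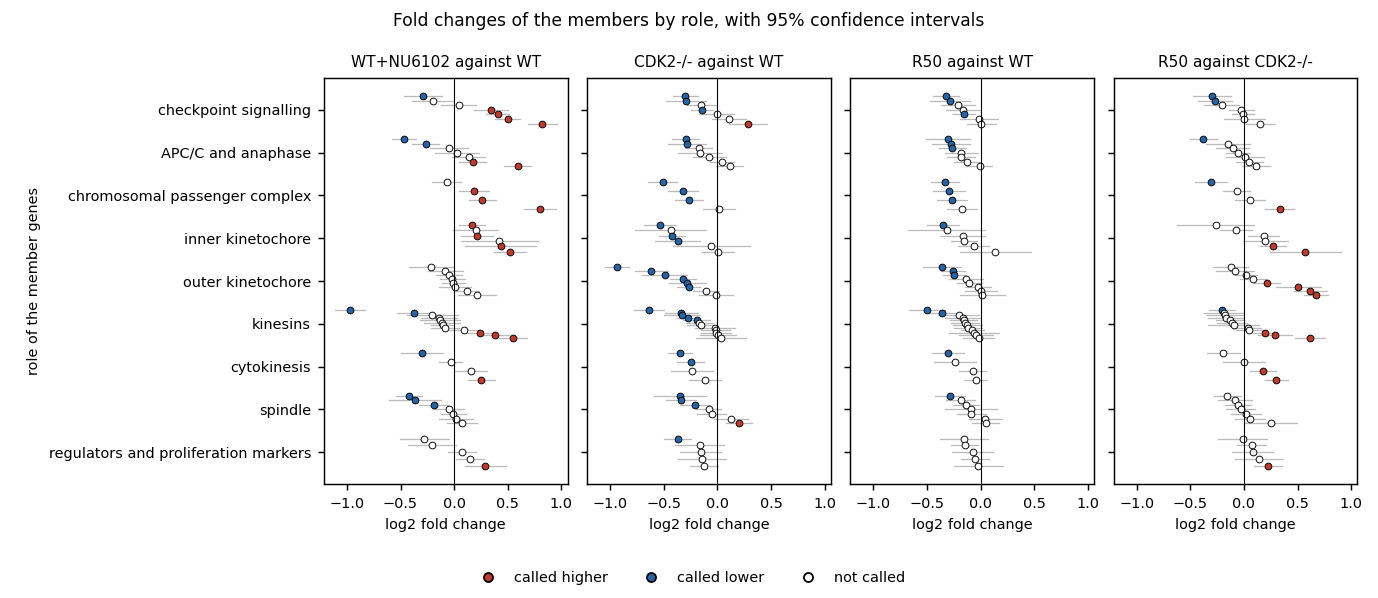
Log2 fold changes of the 60 members (points, with 95% confidence intervals as grey lines) by role in 4 comparisons, red where called higher, blue where called lower and white where not called. The outer kinetochore has no filled point after NU6102, 6 blue points in CDK2-/- against WT and 4 red points in R50 against CDK2-/-, and R50 against WT has no red point.

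Of the 12 kinesins, 3 were higher (25%) and 2 lower (16.7%) after NU6102, beside 30.4% and 24.3% of all genes. The largest fall of any member after NU6102 was that of 1 kinesin, KIF18A. KIF18A, which damps the movements of chromosomes at the metaphase plate, has its probe in hg19 at chr11:28042416-28042475 (base 3150 of its transcript) and gave 1.56 and 1.61 in WT, 0.63 and 0.60 in WT+NU6102, 0.96 and 0.93 in CDK2-/- and 1.62 and 1.51 in R50. It was lowest in treated cells, next lowest in CDK2-/- and overlapped between R50 and WT. The log2 fold change against WT was -0.97 after NU6102 (SE 0.06, adjusted p = 0.000215), -0.64 in CDK2-/- (SE 0.06, adjusted p = 0.00104) and -0.02 in R50, and R50 was above WT+NU6102 by 0.95 (adjusted p = 0.000104) and above CDK2-/- by 0.62 (adjusted p = 0.00101). KIF20A, a kinesin of the central spindle, was the other kinesin that was lower after NU6102 by its brightest probe (-0.38, adjusted p = 0.00534), and it was also lower in CDK2-/- (-0.33, adjusted p = 0.013) and not in R50 (-0.04). KIF4A, KIF2C and KIF23 were higher after NU6102, at 0.55, 0.38 and 0.24. KIF2C, which removes tubulin from microtubule ends at the centromere, gave 3.71 and 3.74 in WT, 4.12 and 4.10 in WT+NU6102, 3.56 and 3.58 in CDK2-/- and 3.33 and 3.41 in R50. No groups overlapped, with R50 at the bottom, at -0.36 against WT (SE 0.05, adjusted p = 0.00772) and -0.20 against CDK2-/- (adjusted p = 0.0267). KIF20B, a kinesin of cytokinesis, gave -0.048 and -0.0033 in WT, -0.15 and -0.13 in WT+NU6102, -0.28 and -0.44 in CDK2-/- and -0.51 and -0.54 in R50. It was the largest fall in R50 against WT (-0.50, SE 0.07, adjusted p = 0.00719) and was also lower in CDK2-/- (-0.33, adjusted p = 0.0159), while WT and WT+NU6102 were not called apart (-0.11). Its second probe gave another picture, lower after NU6102 (-0.43, adjusted p = 0.0037) and in R50 against WT (-0.33, adjusted p = 0.0224), with -0.05 in CDK2-/-, which was not called. KIF11 (Eg5), which separates the spindle poles, gave 1.73 and 1.79 in WT, 1.62 and 1.63 in WT+NU6102, 1.75 and 1.80 in CDK2-/- and 1.52 and 1.68 in R50. The lower arrays of WT+NU6102 and R50 overlapped each other, and no comparison was called (-0.14, adjusted p = 0.147 after NU6102). KIF15, which helps keep the poles apart, was lower in CDK2-/- (-0.27) and higher in R50 than in CDK2-/- (0.19). KIFC1 was called in R50 against WT+NU6102 alone (-0.22), and KIF14 and the brightest probes of KIF18B and KIF22 were not called in any comparison. The second probes of both were lower in R50 against WT (-0.48, adjusted p = 0.0297 for KIF18B and -0.20, adjusted p = 0.0445 for KIF22) and against WT+NU6102 (-0.56 and -0.29), and that of KIF18B also against CDK2-/- (-0.37, adjusted p = 0.0451).

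**Figure D4:**
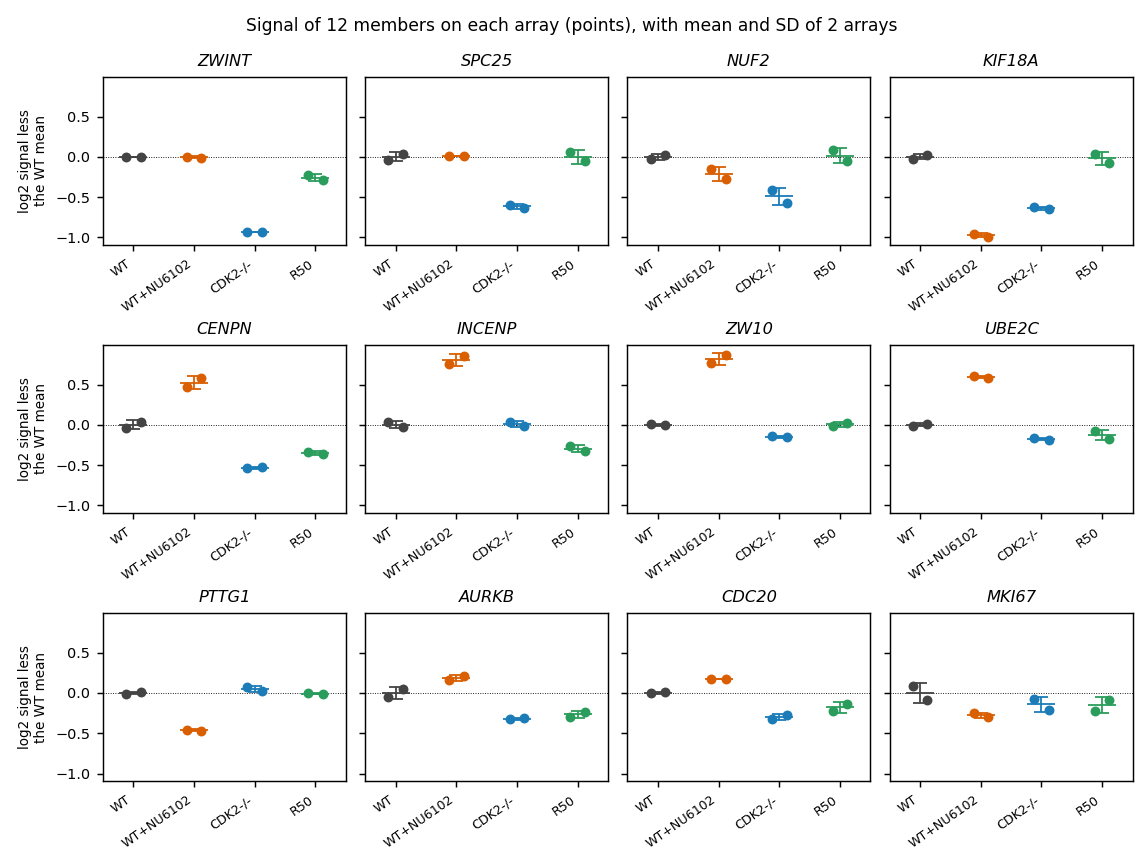
Normalized log2 signal less the mean of the WT arrays for 12 members, 1 panel each, with both arrays of a group as points, the mean as a horizontal line and the SD of 2 arrays as an error bar. ZWINT and SPC25 are lowest in CDK2-/-, KIF18A is low in WT+NU6102 and CDK2-/-, INCENP, ZW10 and UBE2C are high in WT+NU6102, and the MKI67 groups lie close together.

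Of the 4 cytokinesis genes, ANLN and PRC1 were lower in CDK2-/- against WT, at -0.25 and -0.35, and higher in R50 than in CDK2-/-, at 0.18 and 0.30. ANLN, a scaffold of the contractile ring, was also higher after NU6102 (0.25, adjusted p = 0.01), and PRC1, which bundles midzone microtubules, was not called there (-0.03). RACGAP1, a subunit of centralspindlin, was lower after NU6102 (-0.30, adjusted p = 0.0269), whereas its partner KIF23 was higher (0.24, adjusted p = 0.0126). ECT2, which they recruit to start furrowing, was lower in R50 against WT (-0.30, adjusted p = 0.022).

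Of the 7 spindle genes, 3 were lower after NU6102 (ASPM, HMMR and CKAP2) and 0 were higher. ASPM, a protein of spindle poles, gave 2.74 and 2.76 in WT, 2.37 and 2.29 in WT+NU6102, 2.97 and 2.93 in CDK2-/- and 2.80 and 2.79 in R50. It was lowest in treated cells (-0.42, SE 0.05, adjusted p = 0.0015) and highest in CDK2-/- (0.20, adjusted p = 0.0309), a rise that was not called without either WT array or either CDK2-/- array. HMMR, which targets TPX2 to the poles, was lower by 0.36 after NU6102 and by 0.35 in CDK2-/-, but its WT arrays were 4.29 and 4.56 (SE 0.10, adjusted p = 0.0286 and 0.0456). AURKA, a kinase of spindle poles, gave 2.95 and 2.94 in WT, 3.02 and 3.004 in WT+NU6102, 2.59 and 2.62 in CDK2-/- and 2.60 and 2.72 in R50. CDK2-/- and R50 overlapped below WT, at -0.34 (adjusted p = 0.00848) and -0.28 (adjusted p = 0.0219), and the treated arrays were slightly above WT without a call (0.07). TPX2, the activator of AURKA, was lower in CDK2-/- (-0.21, adjusted p = 0.0389), and NUSAP1 and DLGAP5 were not called in any comparison.

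Of the 5 regulators and markers of proliferation, 1 was higher after NU6102 (FOXM1) and 1 lower in CDK2-/- (PBK) by the brightest probe. That is 20% each, beside 30.4% of all genes higher after NU6102 and 17.1% lower in CDK2-/-. FOXM1, the activator of many of these genes, gave 1.74 and 1.74 in WT, 2.04 and 2.02 in WT+NU6102, 1.60 and 1.58 in CDK2-/- and 1.56 and 1.78 in R50. The treated arrays were above all others (0.29 against WT, SE 0.08, adjusted p = 0.0274, and 0.18, adjusted p = 0.127 under quantile normalization), and the R50 arrays spanned WT. TOP2A, the topoisomerase that untangles sister chromatids, gave 1.14 and 1.18 in WT, 1.28 and 1.18 in WT+NU6102, 1.05 and 1.01 in CDK2-/- and 1.09 and 1.12 in R50. No comparison of TOP2A was called, and the fold change furthest from 0 was -0.13, in CDK2-/- and in R50 against WT+NU6102. MKI67, whose protein is the marker Ki-67, gave 2.47 and 2.29 in WT, 2.12 and 2.08 in WT+NU6102, 2.30 and 2.16 in CDK2-/- and 2.15 and 2.29 in R50. Its brightest probe was not called in any comparison (-0.28, adjusted p = 0.0543 after NU6102). The dimmer MKI67 probes, at bases 11719 and 1614, were both higher in R50 than in WT+NU6102. The values were 0.77 (adjusted p = 0.00123) and 0.76 (adjusted p = 0.000422). The probe at base 1614 was also higher in R50 than in CDK2-/- (0.29, adjusted p = 0.0268). Against WT, R50 was not called by either probe (-0.04 and 0.18). PBK, a mitotic kinase, was lower in CDK2-/- (-0.37, adjusted p = 0.00484) and higher in R50 than in CDK2-/- (0.22, adjusted p = 0.0237), and NEK2, another mitotic kinase, was not called by its brightest probe (-0.21 after NU6102). The second NEK2 probe was lower after NU6102 (-0.54, adjusted p = 0.0062) and in CDK2-/- (-0.33, adjusted p = 0.0464), and higher in R50 than in WT+NU6102 (0.34, adjusted p = 0.0264).

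Over the 4 groups at once, 15 of 60 members (25%) differed at an adjusted p under 0.001 in limma's F-test, where 28.8% of all genes did. The median range of the 4 group means was 0.44 log2 units for the members and 0.56 for all genes. By role the F-test was passed by 3 of 7 checkpoint genes, 2 of 4 genes of the passenger complex, 2 of 6 of the inner and 2 of 8 of the outer kinetochore and 3 of 12 kinesins, and by 0 of 4 cytokinesis genes and 0 of 5 regulators and markers. This count was 0 without either WT array, either CDK2-/- array or either WT+NU6102 array, 2 without either R50 array, and 35 where limma's prior variance was let vary with signal.

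Different probes of a gene did not always give the same answer. Among the 18 members with several tested probes, the fold changes of the probes lay apart by a median of 0.10 (CDK2-/- against WT) to 0.30 (R50 against WT+NU6102). Probes were called in opposite directions for BUB3 after NU6102 and in R50 against WT+NU6102, and for CENPN in CDK2-/- against WT. The CENPN probes read 3 annotated transcripts. In CDK2-/- against WT the probe for NM_018455 was lower (-0.53), that for NM_001100625 was higher (0.70, adjusted p = 0.00518) and that for NM_001100624 was not called (0.16), and after NU6102 they were all higher, by 0.52, 0.68 and 1.24. The probe for NM_001100625 gave -2.80 and -2.90 in WT and -2.16 and -2.14 in CDK2-/-. For BUB3, the probe in NM_001007793 rose after NU6102 by 0.34 (adjusted p = 0.00797) and that near the end of NM_004725 was lower by 0.58 (adjusted p = 0.000824). With the mean over the probes of a gene, BUB3 was -0.12 after NU6102 (adjusted p = 0.0947) and CENPN 0.11 in CDK2-/- (adjusted p = 0.138), so that both calls were lost and the sign turned. The 3 MKI67 probes were all below WT after NU6102, and the dimmer pair was called, at -0.80 (adjusted p = 0.0015) and -0.58 (adjusted p = 0.00162). The ZWINT probes gave -0.93 and -0.97 in CDK2-/-, and the KIF4A probes 0.55 and 0.59 after NU6102.

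**Figure D5:**
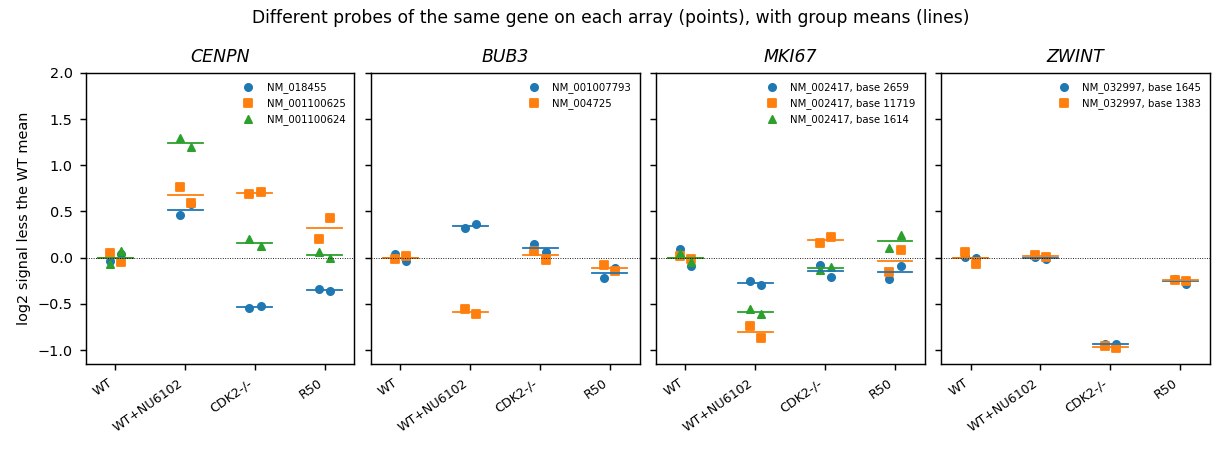
Normalized log2 signal less the mean of the WT arrays for the different probes of CENPN, BUB3, MKI67 and ZWINT (colours and markers, named by transcript and, for 1 transcript, by the base at which the probe starts), with both arrays as points and group means as lines. The ZWINT probes coincide, while the BUB3 probes part after NU6102 and the CENPN probes in CDK2-/-.

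Genes of neighbouring machinery that are not members give a frame for these values. Over all genes 30.4% were higher and 24.3% lower after NU6102. In CDK2-/- 20.2% of all genes were higher and 17.1% lower, and in R50 against WT 12.6% and 16.1%. Of 22 other centromere and kinetochore genes, 11 were higher and 1 lower after NU6102, 6 were lower and 3 higher in CDK2-/-, and 8 were lower and 0 higher in R50 against WT. A list of 15 APC/C genes held subunits and also the ubiquitin-conjugating enzyme UBE2S and the APC/C inhibitor FBXO5. Of the 15, 10 were higher and 2 lower after NU6102, and 8 were lower and 0 higher in R50. UBE2S and FBXO5 were both among the 10, at 0.60 and 0.45. In CDK2-/- 3 were higher and 3 lower (20% each), near the shares of all genes. Of 17 condensin and cohesin genes, 5 were higher (29.4%, beside 30.4% of all genes) and 2 lower after NU6102, 2 were higher and 2 lower in CDK2-/-, and 3 were lower (17.6%, beside 16.1%) and 0 higher in R50. Of 12 genes of the MuvB core, DREAM and MYBL2, 5 were higher and 2 lower after NU6102, and 4 were lower and 0 higher in R50. In CDK2-/- 3 were higher (25%) and 2 lower (16.7%), also near the shares of all genes. Few of them passed a log2 fold change of 1. CENPO, a kinetochore subunit, and CDC26, a subunit of the APC/C, were higher after NU6102 by 1.07 each, and RBL2, the p130 pocket protein of DREAM, was lower by 1.03. LIN9, a subunit of the MuvB core, and NCAPH, a condensin subunit, were higher in CDK2-/- than in WT by 1.23 and 1.58, and R50 was lower than CDK2-/- in both, at -1.58 and -1.17. Of the others, CENPC1, the link between CENPA and the kinetochore, was lower in R50 than in CDK2-/- by 1.03, and ANAPC16 was higher by 1.17. SKA1, a partner of the NDC80 complex at microtubule ends, was lower in R50 than in WT+NU6102 by 1.04. In that comparison the lowest value was -1.52 among the other centromere and kinetochore genes and -1.31 among the listed APC/C genes. The highest among the genes of the MuvB core, DREAM and MYBL2 was 1.01.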

How the data were processed

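The authors hybridized amplified, Cy3-labelled complementary RNA to 1-colour Agilent arrays with 60-base probes. Per the file headers, Agilent Feature Extraction 11.5.1.1 made the background-subtracted spot intensity that was deposited. The authors also deposited a table of log2 values for 28719 probes, with the 75th percentile of each array subtracted and each probe centred on its median, which was used as an alternative. Here, control spots and outlier spots were left out, log2 intensity less the 75th percentile of each array was averaged over the spots of a probe, and the test took 28677 of 50599 probes, those that passed the background test in each array of any 1 group. The 4 groups were fitted together with limma 3.58.1 in R 4.3.3 with Benjamini-Hochberg adjustment, and the scripts were tested on simulated data. Promoters were searched with Python 3.11.15. Array values are given for the 3 largest called rises and falls of each comparison and for a set of widely used mitotic markers (AURKA, AURKB, BUB1B, CDC20, CENPA, CENPE, KIF11, TOP2A, MKI67 and FOXM1), and those of CENPK, HMMR and the second CENPN probe were added after their values were seen. The members and all lists were chosen with earlier results of these data known. Probes and genes are named as in the scanner files, whose probe positions are on hg19. Precision is set by the few arrays per group. A marker gene of another cell type is not reported here. Alternatives changed the background correction (normexp, offset 50), the normalization, the filter, the prior variance, the probe of a gene, the samples in the fit, the test (the methods' t-test and ANOVA) and the thresholds (adjusted p under 0.01, or a log2 fold change of at least 1), used a replicate block, or left out each array. Slide was not fitted as a block, since both groups of a within-slide comparison lie on 1 slide and the fit of the groups compared alone stands for it. Same-numbered arrays of different groups did not deviate together, so the numbers were not taken as pairs.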

Additional observations from a re-analysis of the deposited data

How the results depend on the processing

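Of 128 called fold changes of the members, 2 reversed under the alternatives run, both with the mean over the probes of a gene: BUB3 after NU6102 became -0.12 and CENPN in CDK2-/- 0.11, neither called, since their probes differ in direction. With quantile normalization 21 of the 128 lost the call, with no filter on dim probes 63, and with the methods' t-test 82. The counts of called members depended on the processing as follows, in the order higher and lower. With quantile normalization, WT+NU6102 against WT gave 10 and 17 (all genes 26.2% and 26.4%). There, R50 against CDK2-/- gave 3 lower (22%) and R50 against WT+NU6102 12 higher (29.4%). With no filter on dim probes, WT+NU6102 against WT gave 9 and 5 (all genes 21.9% and 18.4%) and R50 against CDK2-/- 6 and 1 (11.2% and 14.4%). CDK2-/- against WT gave 0 and 12 there (11.6% and 9.67%), R50 against WT 1 lower (4.21%), and the F-test over the groups 0. With probes well above background on all 8 arrays, R50 against CDK2-/- had 8 lower (all genes 27.8%). With a prior variance that varies with signal, 10 were lower in R50 against CDK2-/- (all genes 29.4%) and 29 in R50 against WT (21.9%), and 35 passed the F-test. A fit of the groups compared alone gave 6 and 3 for R50 against CDK2-/- (all genes 13.1% and 17.4%). It gave 0 higher in CDK2-/- (16.3%) and 1 lower in R50 against WT (4.52%). The methods' t-test after Benjamini-Hochberg gave 5 lower after NU6102 (all genes 10.9%). It gave 3 and 0 for R50 against CDK2-/- (4.82% and 5.51%) and 0 and 7 for CDK2-/- (3.66% and 3.05%). In R50 against WT it gave 0 lower, where only 0.0353% of all genes were lower. For R50 against WT+NU6102 it gave 3 and 18 (15.6% and 22.5%), and the methods' ANOVA gave 7. At an unadjusted p under 0.05 the same test put 6 lower in R50 against CDK2-/-, 2 higher in CDK2-/- and 17 lower in R50 against WT. At an adjusted p under 0.01, WT+NU6102 against WT gave 10 and 5, R50 against CDK2-/- 7 and 1, CDK2-/- against WT 0 and 15, and R50 against WT 3 lower. With a log2 fold change of at least 1, every comparison gave 0 and 0, apart from 1 lower in R50 against WT+NU6102. The mean over the probes of a gene left 1 higher in CDK2-/-. Members with probes called in opposite directions numbered 1 in R50 against CDK2-/- with normexp and with quantile normalization, and 0 in WT+NU6102 against WT with quantile normalization.

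With the replicate block, 1 member was higher and 22 were lower in CDK2-/- (all genes 19% and 15.6%). There, 13 were lower in R50 against WT (13.5%) and 2 passed the F-test. The counts of the within-slide comparisons were 18 and 9 after NU6102 (29.2% and 23.8%) and 13 and 5 for R50 against CDK2-/- (16.6% and 23.4%). Leaving out each array gave 11 to 16 higher and 5 to 9 lower after NU6102, 6 to 13 and 2 to 5 in R50 against CDK2-/-, 0 to 2 and 14 to 26 in CDK2-/- against WT, 0 and 3 to 13 in R50 against WT, 4 to 6 and 26 to 31 in R50 against WT+NU6102, and 0 to 2 in the F-test. Where an array was left out, the remaining one was assumed to vary like the other groups. With 2 arrays a group, a difference that was not called may still exist.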
